A study of Rattus norvegicus with 2 samples.

Results

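The 9 genes of the defence against reactive oxygen species, *Sod1*, *Sod2*, *Sod3*, *Cat*, *Gpx1*, *Gpx3*, *Nqo1*, *Txnrd1* and *Gclm*, were chosen as a set of antioxidant enzymes and followed by symbol through the cell clusters of a neonatal rat heart preparation. They are 9 of the 25399 genes in the gene list, and all 9 had unique molecular identifiers (UMIs, 1 per captured RNA molecule) in both libraries. Cardiac cells came from Sprague-Dawley rats aged 1 to 3 days, males and females pooled, and a Percoll gradient was used to enrich intrinsic cardiac adrenergic (ICA) cells, the noradrenaline-making cells of the heart. Cells of the LPS group received lipopolysaccharide (LPS, a component of the bacterial outer membrane) at 1 µg/mL and control cells saline, both for 2 h, and each group gave 1 single-cell library made with the 10X Genomics 3′ kit.

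The 2 libraries held 11531 to 12689 cells with a median of 9432 to 12479 UMIs per cell, and 194 cell barcodes occurred in both (1.68% of the control and 1.53% of the LPS barcodes). Although the samples were labelled as ICA cells, fibroblasts were the most numerous: the authors named clusters 0, 1 and 7 Fibroblast, 4 and 5 Endothelial, 6 Macrophages and 3 ICA and Cardiomyocyte. The 4 ICA markers (*Dbh*, *Ddc*, *Th*, *Pnmt*) summed to 75.2 and 81.9 per 1000000 UMIs in cluster 3 and to 8.89 or less in every other cluster and library, and *Th* had 0 UMIs in cluster 3. Clusters 2, 8, 9 and 10 had no name from the authors. Cluster 2 is called mural-like here from *Rgs5*, *Kcnj8* and *Abcc9*, and cluster 8 mesothelial-like from *Upk1b* and *Msln*. Of the 7 listed mesothelial markers, 6 had UMIs in cluster 8 in control and 5 in LPS cells. *Krt19* had 0 UMIs there in both libraries, and *Lrrn4* had 0 with LPS. Cluster 10 (16 control and 26 LPS cells), led by *Sox2*, *Gap43* and *Sox10*, is left unnamed. So is cluster 9, since mitochondrial genes and *Myh6* led it while its fibroblast markers were high. Cells of clusters 3 and 9 carried more mitochondrial RNA than the rest, with medians between 12.6% and 17.9% of UMIs.

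Superoxide, which leaks from mitochondria and is made on purpose by NADPH oxidases, is turned into hydrogen peroxide by superoxide dismutases, of which *Sod1* encodes the cytosolic, *Sod2* the mitochondrial and *Sod3* the secreted enzyme. Catalase (*Cat*) and the glutathione peroxidases (*Gpx1* in the cell, *Gpx3* secreted) then remove the peroxide. *Nqo1* (a quinone reductase), *Txnrd1* (cytosolic thioredoxin reductase) and *Gclm* (the modifier subunit of glutamate-cysteine ligase, which starts glutathione synthesis) are well-known targets of the transcription factor NRF2, whereas *Sod2* is a well-known target of NF-κB, the factor that LPS activates through its receptor TLR4.

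NRF2 acts through a short sequence, the antioxidant response element, and the 250 bases upstream of the annotated start were searched for its core, TGACNNNGC, on both strands. RefSeq entries on the rat build GRCr8 were found for 8 of the 9 genes. Matches were found in 3 genes, *Sod2*, *Txnrd1* and *Gclm*, and the windows that held them are shown. Whether the core plays a part in the LPS ratios of these genes was not tested. The match is in capitals, in each case the reverse complement of the core. *Txnrd1* has a pair of annotated starts, and only the window shown here held a match.

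*Sod2*, chr1:50050169-50050418, minus strand: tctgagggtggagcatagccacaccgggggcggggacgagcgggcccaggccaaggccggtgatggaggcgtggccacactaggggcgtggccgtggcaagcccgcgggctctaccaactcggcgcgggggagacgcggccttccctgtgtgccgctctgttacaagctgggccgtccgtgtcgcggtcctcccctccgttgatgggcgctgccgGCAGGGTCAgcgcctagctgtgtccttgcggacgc
*Txnrd1*, chr7:22755905-22756154, minus strand: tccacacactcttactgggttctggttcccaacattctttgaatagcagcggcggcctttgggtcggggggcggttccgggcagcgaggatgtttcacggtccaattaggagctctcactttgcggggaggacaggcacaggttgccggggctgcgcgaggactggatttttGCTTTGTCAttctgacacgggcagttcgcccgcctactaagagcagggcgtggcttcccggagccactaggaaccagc
*Gclm*, chr2:213031885-213032134, plus strand: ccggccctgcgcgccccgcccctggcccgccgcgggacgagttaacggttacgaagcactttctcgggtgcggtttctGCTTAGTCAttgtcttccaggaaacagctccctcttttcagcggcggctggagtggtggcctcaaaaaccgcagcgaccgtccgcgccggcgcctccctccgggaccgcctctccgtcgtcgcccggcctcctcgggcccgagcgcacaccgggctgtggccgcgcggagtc

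The core was present in 10.1% of all 33469 rat promoter windows of this length. An NF-κB consensus was present in 3.54% of them and in none of the windows of the 8 genes, and a GC box (GGGCGG) in 30.5% of them and in windows of 7 of the 8 genes. A match is a description of the sequence, and no match says only that these letters are not in this window.

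Levels are UMIs of the gene summed over the cells of a cluster, per 1000000 UMIs of that cluster (CPM). Since each condition is a single library, no test was possible, and every interval (95%) covers counting error only. How the cells of each library were handled may differ too and cannot be told apart from LPS. A gene was compared in a cluster when it had at least 100 UMIs over both libraries and was called higher or lower when the ratio of LPS to control reached 1.5-fold.

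Of the 99 pairs of gene and cluster, 83 could be compared, and 14 were higher and 9 lower with LPS. Over all genes the same rule called 6.37% of 60932 pairs higher and 11.5% lower, against 16.9% and 10.8% of the pairs of these enzymes. The 14 higher pairs belonged to *Sod2* (9 clusters) and *Txnrd1* (5 clusters), and the 9 lower ones to *Cat* (3), *Gpx1* (2), *Gpx3* (2), *Nqo1* (1) and *Gclm* (1). *Sod1* and *Sod3* were called in no cluster. The median log2 ratio was -0.12 over the 83 pairs and -0.06 over all 60932. The median gene was itself shifted, by -0.11 in cluster 0, -0.10 in cluster 2 and -0.25 in cluster 6, and by less than 0.1 in the others. With ratios taken relative to that median, 15 pairs were higher and 7 lower, against 7.66% and 8.98% of all pairs. The pairs just inside the limit were *Txnrd1* in cluster 1 (1.54) and *Gpx3* in cluster 2 (0.649), and those just outside were *Sod3* in cluster 7 (1.48) and *Gpx3* in cluster 4 (0.700).

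**Figure D1:**
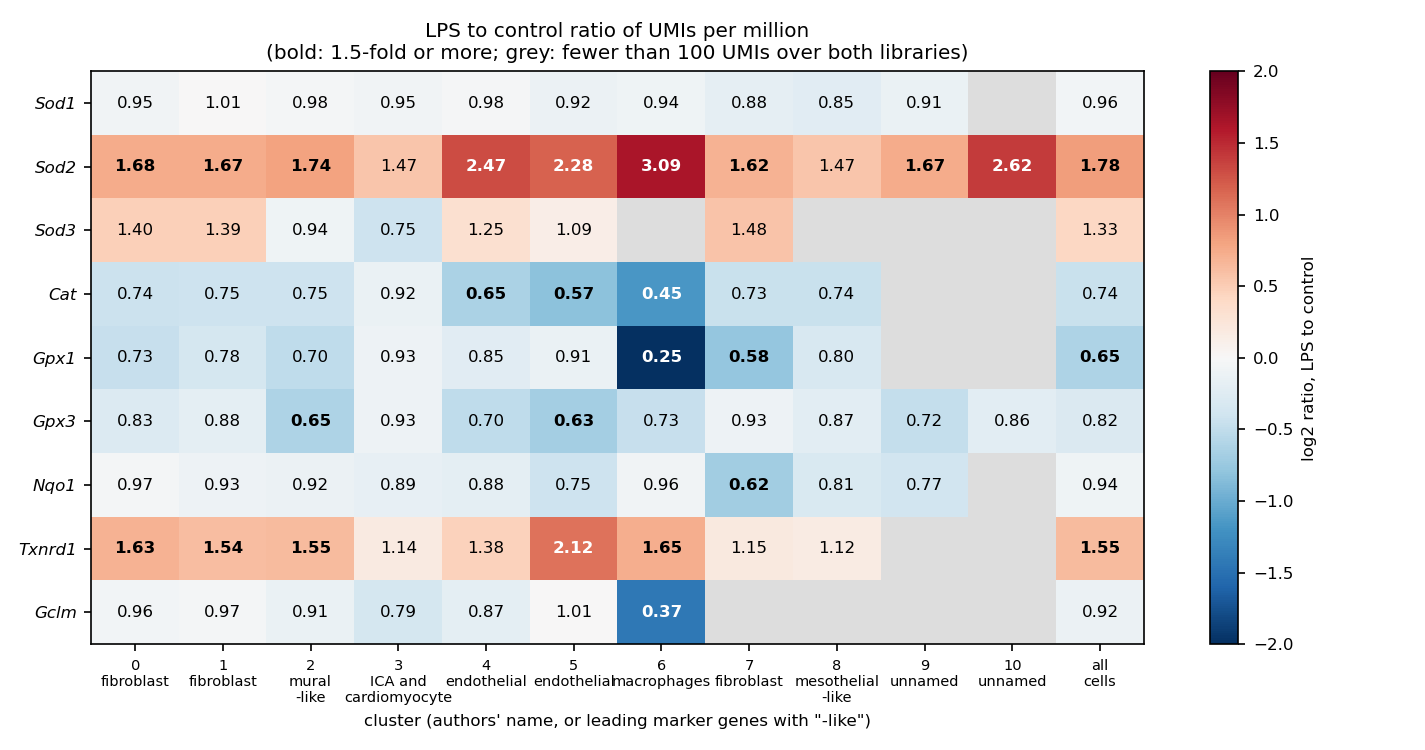
Ratio of LPS to control level for each gene (rows) in each cluster and in all cells (columns), with the colour on a log2 scale. *Sod2* runs between 1.47 and 3.09 in all 11 clusters and *Txnrd1* between 1.12 and 2.12 in the 9 compared, while *Cat*, *Gpx1* and *Gpx3* are below 1 in every cluster compared.

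*Sod2* had a higher level with LPS in every cluster and under every alternative tried. The ratio was largest in macrophages, except with thinned cells, where the small cluster 10 came first (3.51 against 3.22). The macrophage level was 2303 CPM in control and 7118 CPM in LPS cells, a ratio of 3.09 (3.01 to 3.18). Among genes of the cluster it moved from rank 67 to rank 14 by level. Cluster 10, unnamed and led by *Sox2*, had 1314 and 3450 CPM (2.62, 2.22 to 3.11). Endothelial cells came next. In cluster 4 the level of *Sod2* was 1470 CPM in control and 3629 CPM in LPS cells, a ratio of 2.47 (2.42 to 2.52), and in cluster 5 it was 2188 and 4981 CPM, a ratio of 2.28 (2.22 to 2.33).

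In the fibroblast clusters the response of *Sod2* was smaller and similar. Cluster 0 had 2158 CPM in control and 3625 CPM in LPS cells, a ratio of 1.68 (1.67 to 1.69). The ratios in clusters 1 and 7 were 1.67 (1.65 to 1.69) and 1.62 (1.55 to 1.69), and that in the mural-like cluster 2 was 1.74 (1.71 to 1.77). Cluster 3 had the lowest *Sod2* level in both libraries, 889 and 1308 CPM, with a ratio of 1.47 (1.42 to 1.52) that fell just short of the limit. So did the mesothelial-like cluster 8, with 2326 and 3412 CPM and a ratio of 1.47 (1.39 to 1.54). When only cells with at least 1000 genes and at most 10% mitochondrial UMIs were kept, which left 55 control and 85 LPS cells of cluster 3, the ratio there was 1.57.

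The order of the clusters by *Sod2* level therefore differed between the libraries. In control cells the highest levels, in clusters 8, 7 and 6, were 2326, 2319 and 2303 CPM, and neighbours in that order could not be told apart by counting error. In LPS cells the macrophages stood 1.43-fold (1.40 to 1.46) above cluster 5, which stood 1.33-fold (1.29 to 1.37) above the next. In all cells together the level was 2015 and 3579 CPM, a ratio of 1.78 (1.77 to 1.78).

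**Figure D2:**
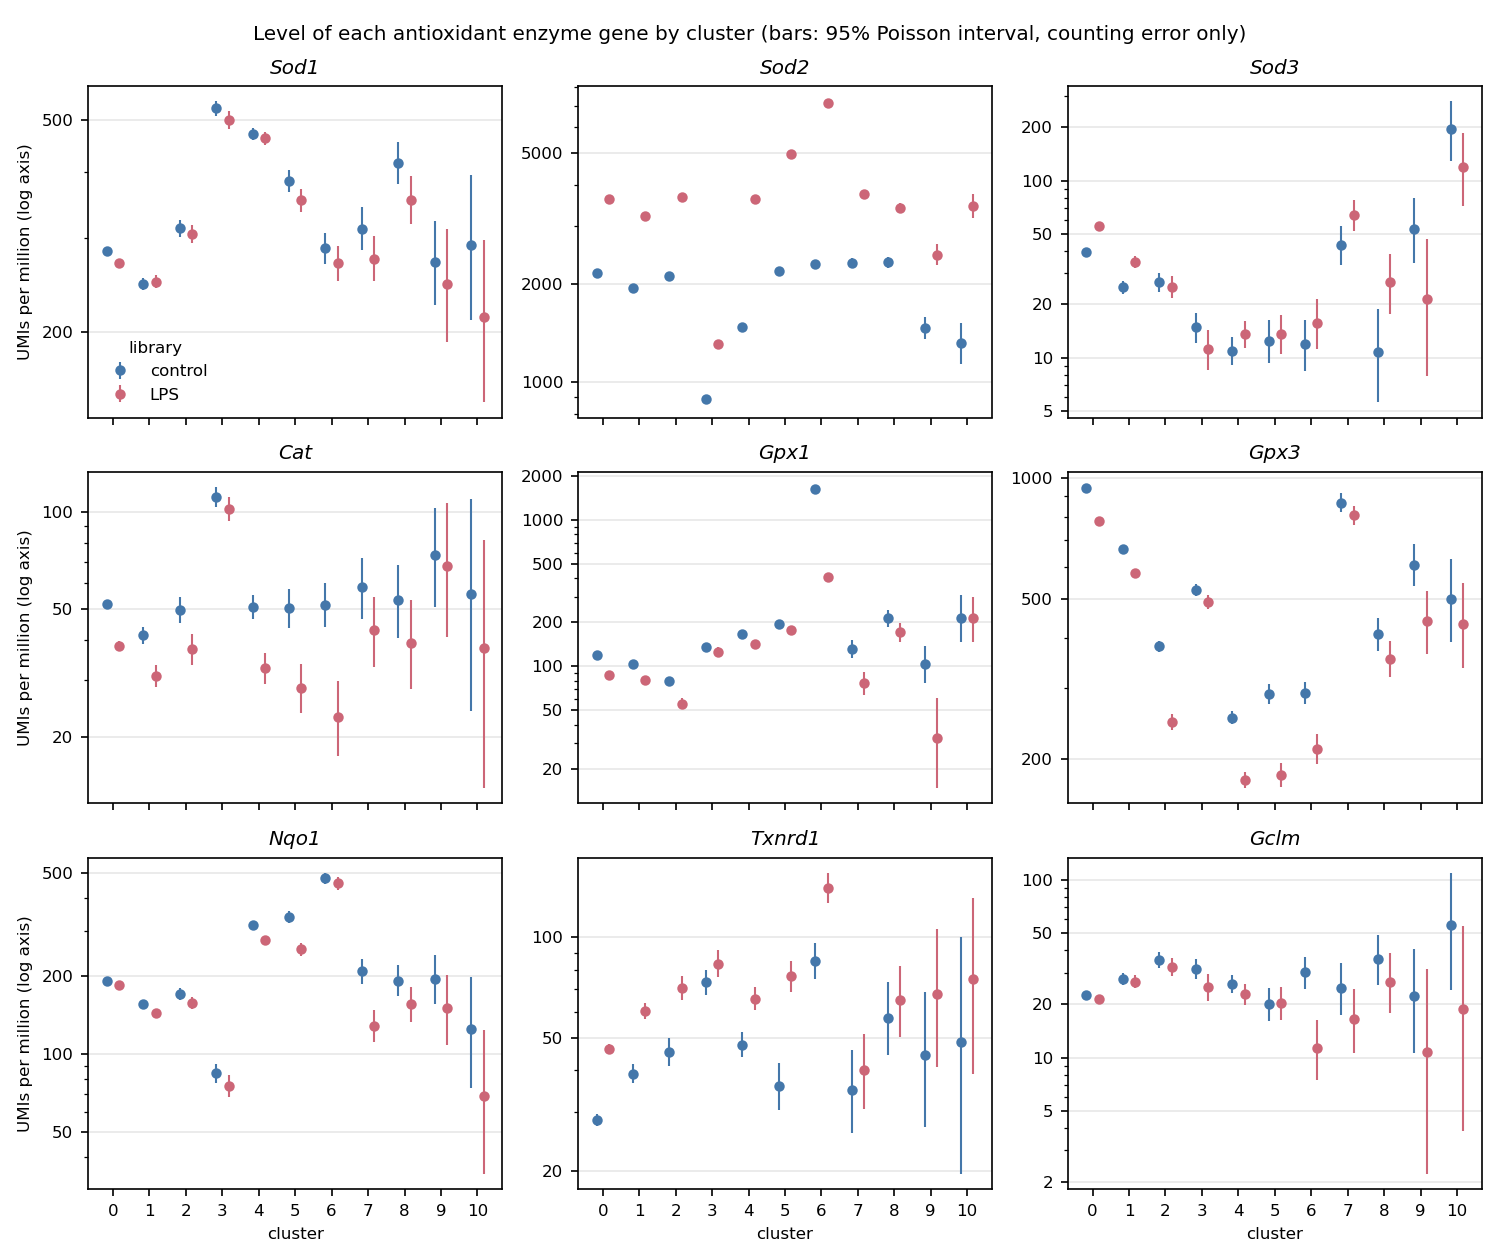
Level of each gene in CPM (log axis, a separate range per panel) by cluster, control in blue and LPS in red, with 95% Poisson intervals. *Sod2* in LPS cells is above control in every cluster, *Gpx1* is highest in cluster 6 in both libraries, and *Cat* and *Sod1* are highest in cluster 3.

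*Sod1* differed little between the libraries. Its levels in the 10 clusters compared ran from 247 to 526 CPM in control and from 247 to 501 CPM in LPS cells. The ratios lay between 0.851 and 1.01, and between 0.847 and 1.12 relative to the median gene, which put 4 clusters (0, 2, 4 and 6) on the other side of 1. Cluster 3, which holds the cardiomyocytes, had the highest level in both libraries, 526 and 501 CPM, 1.12-fold (1.07 to 1.16) and 1.08-fold (1.03 to 1.14) above cluster 4. With the filter on mitochondrial UMIs, cluster 4 came first in both.

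Among the UMIs of the 3 dismutases, the *Sod2* share in cluster 3 was thus the lowest of all clusters, 62.2% in control and 71.8% in LPS cells. In macrophages it was 88.5% and 96.1%, and in all cells 85.5% and 91.3%. These shares count RNA tags and not enzyme.

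*Sod3* was a gene of low level. Fibroblast cluster 0, the largest, held 3596 of its 4887 UMIs in control and 4091 of 5444 in LPS cells. Cluster 0 had 39.7 CPM in control and 55.5 CPM in LPS cells (ratio 1.40, 1.33 to 1.46), cluster 1 had 24.9 and 34.7 CPM (1.39, 1.24 to 1.55), and cluster 7 had 43.2 and 63.8 CPM (1.48, 1.07 to 2.06, or 1.16 with thinned cells). All 3 fibroblast clusters were above control but below the limit of the rule, and relative to the median gene cluster 0 reached 1.51. In endothelial cluster 4 the ratio was 1.25 (0.967 to 1.61), or 0.538 with thinned cells, in cluster 5 it was 1.09, or 0.803 with thinned cells, in cluster 2 it was 0.945 (0.783 to 1.14), or 1.01 relative to the median gene, and in cluster 3 it was 0.750 (0.538 to 1.04). The level was highest in cluster 10, with 195 (28 UMIs) and 119 CPM (19 UMIs), where after thinning each cell to 3000 UMIs 8 of 16 control cells (interval 24.7% to 75.3%) and 11 of 26 LPS cells (42.3%, 23.4 to 63.1) had a *Sod3* UMI. The unthinned shares there were 68.8% and 57.7%. In cluster 0 the thinned shares were 10.3% and 13.7%. Cluster 9 had 53.3 CPM (24 UMIs) in control and 21.5 CPM (6 UMIs) with LPS. In control, counting error could not tell it apart from cluster 0.

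*Gpx1* had its highest level in macrophages of both libraries, and there it was lower with LPS than in control. The control macrophages had 1640 CPM (5109 UMIs) and the LPS macrophages 408 CPM (1014 UMIs), a ratio of 0.249 (0.232 to 0.266). Of the 4589 genes compared in this cluster, 62 had a smaller ratio. After thinning, 97.2% (94.5 to 98.8) of 281 control cells and 66.9% (61.2 to 72.3) of 290 LPS cells had a *Gpx1* UMI, with medians of 5 and 1 UMIs per cell. Without thinning, 99.6% and 87.3% of cells had one (the median cell held 8846 UMIs in control and 6900 with LPS). These enzymes are expressed widely, so no cluster could serve as one that lacks them.

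The difference was not carried by a few cells. In control macrophages the 10th and 90th percentiles were 2 and 10 *Gpx1* UMIs per 3000, against 0 and 3 in LPS macrophages. For *Sod2*, the median cell had 7 UMIs per 3000 in control and 22 in LPS macrophages, and the 10th percentile of LPS cells (12) lay close to the 90th percentile of control cells (13). The 10 macrophage markers summed to 2592 CPM in control and 3161 CPM in LPS cells. *Cd14* (2.88) and *Adgre1* were higher, *Csf1r* (0.136) was lower and 7 were within 1.5-fold. Of these 7, *Cd68* had a ratio of 1.07, and the others were below 1, from 0.678 (*Mrc1*) to 0.876 (*C1qb*). The sum leaned on *Cd14*, which held 1661 of 8073 marker UMIs in control and 3819 of 7858 in LPS macrophages.

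**Figure D3:**
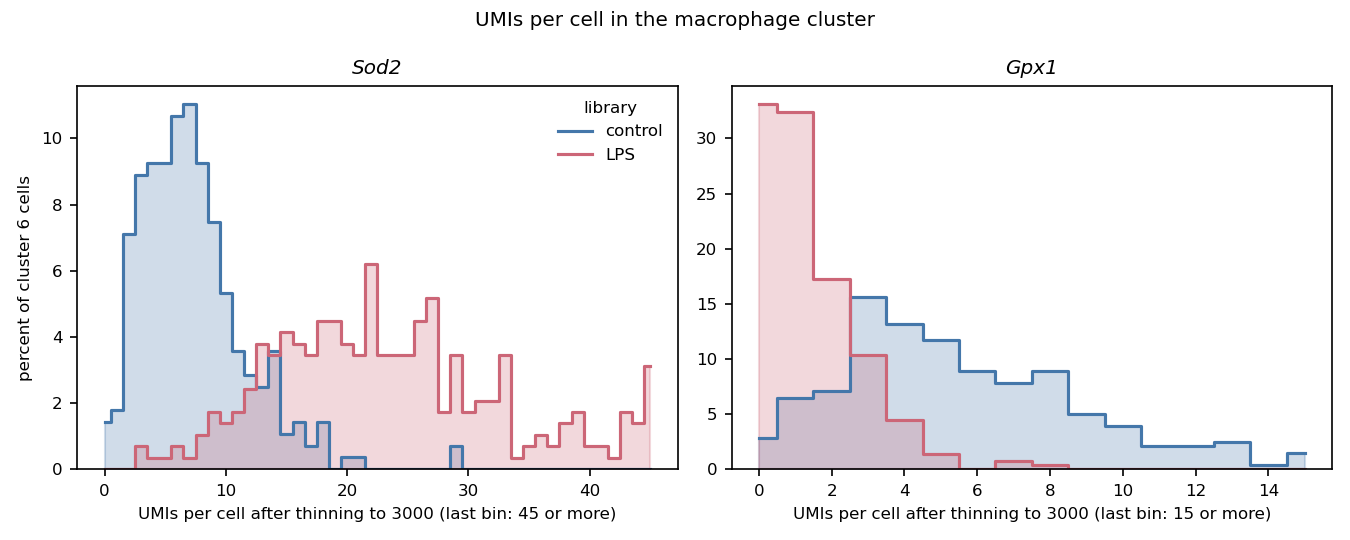
Share of macrophage-cluster cells (percent) by the number of *Sod2* (left) and *Gpx1* (right) UMIs in the cell after thinning to 3000 UMIs, 281 control cells in blue and 290 LPS cells in red. The *Sod2* medians are 7 and 22 UMIs, and the *Gpx1* medians 5 and 1.

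Outside macrophages *Gpx1* lay between 79.3 and 216 CPM in control and between 32.2 and 213 CPM in LPS cells. It was called lower in fibroblast cluster 7, where it had 132 CPM (193 UMIs) and 77.0 CPM (117 UMIs), a ratio of 0.582 (0.459 to 0.736). In the large fibroblast cluster 0 it had 120 and 87.3 CPM, a ratio of 0.729 (0.706 to 0.751), and in cluster 3 it had 957 and 687 UMIs, a ratio of 0.927 (0.839 to 1.02). Cluster 9, with 47 and 9 UMIs, was below the minimum for a comparison. The macrophage markers in cluster 0 summed to 26.3 CPM in control and 17.7 CPM in LPS cells, and their median level there was 0.799% and 0.485% of that in macrophages. The part of free RNA from macrophages in the *Gpx1* level of other clusters was not tested. Over all cells *Gpx1* was called lower, with 153 and 100 CPM (0.655, 0.641 to 0.669), one of 3 enzymes past the limit there beside *Sod2* and *Txnrd1* (all genes: 6.24% higher, 16.5% lower). Relative to the median gene the *Gpx1* ratio over all cells was 0.711, short of the limit. The macrophages held 21.9% of its control UMIs and 7.95% of its LPS UMIs, and in the cells outside them the ratio was 0.771 (0.754 to 0.789).

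*Cat* was below control in all 9 clusters compared, whether or not ratios were taken relative to the median gene. In cluster 8, with 59 and 41 UMIs before thinning, thinned cells gave 1.44, but thinning left fewer than 100 UMIs there. In cluster 3 the filter on mitochondrial UMIs gave 1.16. *Cat* was called lower in macrophages, with 51.4 CPM (160 UMIs) and 22.9 CPM (57 UMIs), a ratio of 0.446 (0.324 to 0.607). Both endothelial clusters were also past the limit. Cluster 5 had 50.1 and 28.3 CPM (0.566, 0.451 to 0.707), a ratio that was 0.821 with thinned cells, which left fewer than 100 UMIs. Cluster 4 had 50.6 and 32.7 CPM (0.646, 0.561 to 0.742), or 0.678 relative to the median gene. In the fibroblast and mural-like clusters the ratios were 0.734 to 0.753. Cluster 3 had the highest catalase level in both libraries, 111 and 102 CPM, and a ratio of 0.917 (0.821 to 1.02), but in LPS cells it could not be told apart from cluster 9 by counting error. Across the other clusters the control levels of *Cat* were close, 41.3 to 73.3 CPM, and 7 of the 9 neighbouring pairs in the control order could not be told apart by counting error.

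*Gpx3* was a fibroblast gene by level. Cluster 0 had 944 CPM in control and 782 CPM in LPS cells (ratio 0.828, 0.819 to 0.837), and cluster 7 had 868 and 807 CPM (0.930, 0.859 to 1.01). Its ratio was below 1 in all 11 clusters, also relative to the median gene, although cluster 10 gave 1.08 without the 8% of cells with the most UMIs. It passed the limit in the mural-like cluster 2, with 381 and 247 CPM (0.649, 0.614 to 0.685), and in endothelial cluster 5, with 290 and 182 CPM (0.627, 0.574 to 0.686). Relative to the median gene the ratio in cluster 2 was 0.697. In macrophages it had 292 and 212 CPM, a ratio of 0.727 (0.652 to 0.810) that became 0.661 with thinned cells. Cluster 3 had 527 and 492 CPM (0.934, 0.888 to 0.981).

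The fibroblast markers had UMIs in every cluster, and *Gpx3* and *Sod3* were set beside them. In control endothelial cells *Gpx3* stood at 26.9% (cluster 4) and 30.8% (cluster 5) of its cluster 0 level, and *Sod3* at 27.4% and 31.4%, while the 9 fibroblast markers stood at 19.0% to 33.2% and 21.3% to 33.2%. In control macrophages *Gpx3* and *Sod3* stood at 31.0% and 29.9%, within the marker range of 28.0% to 42.6%. In cluster 3 *Gpx3* stood at 55.8%, above the marker range of 18.6% to 46.8%, and *Sod3* at 37.3%, within it. The summed fibroblast markers were lower in LPS cells of every cluster. They had 3168 and 2244 CPM in cluster 5 and 5651 and 4299 CPM in cluster 2, the clusters where *Gpx3* was called lower. Where *Gpx3* was not called, they had 3367 and 2408 CPM in cluster 4 and 3999 and 3036 CPM in macrophages. The part of these markers in the *Gpx3* ratios was not tested.

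**Figure D4:**
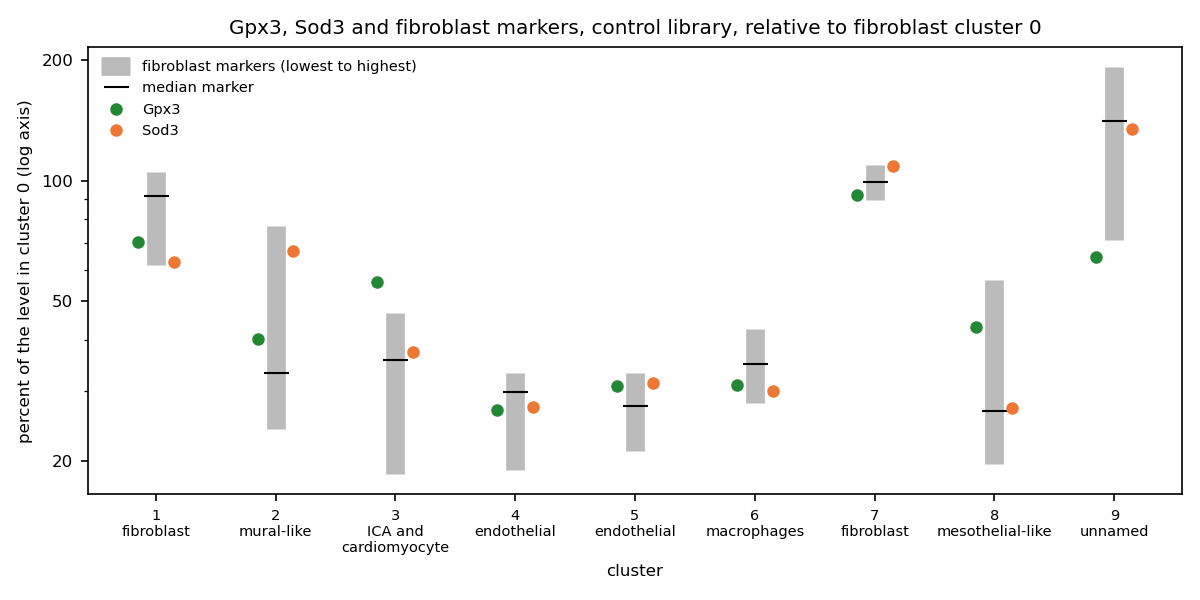
Level of *Gpx3* (green) and *Sod3* (orange) in each cluster of the control library as a percent of the level in fibroblast cluster 0 (log axis), with the range (grey) and median (black) of the 9 fibroblast markers. In endothelial clusters 4 and 5 and in macrophages both genes lie within the marker range, and in cluster 3 *Gpx3*, at 55.8%, lies above it.

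*Txnrd1* was above control in all 9 clusters compared, but in clusters 3, 7 and 8 an alternative put it on the other side. Endothelial cluster 5 had the largest ratio, with 36.0 CPM (153 UMIs) and 76.5 CPM (348 UMIs), 2.12 (1.75 to 2.59). Macrophages had the highest level, 85.1 and 141 CPM, with a ratio of 1.65 (1.41 to 1.95). In control cells they could not be told apart from cluster 3 by counting error (1.16-fold, 0.995 to 1.35). Fibroblast cluster 0 had 28.4 and 46.2 CPM (1.63, 1.54 to 1.71), cluster 1 had 39.1 and 60.2 CPM (1.54, 1.41 to 1.68), and the mural-like cluster 2 had 45.5 and 70.6 CPM (1.55, 1.37 to 1.76). Thinned cells gave 1.44 in macrophages and 1.35 in cluster 1, both short of the limit. Endothelial cluster 4 had a ratio of 1.38 (1.22 to 1.55). In cluster 3 the levels were 73.5 and 83.6 CPM, a ratio of 1.14 (1.00 to 1.29), which was 0.997 with thinned cells and 1.54 in the few cells that passed the filter on mitochondrial UMIs. In cluster 7 the ratio was 1.15, or 0.985 with thinned cells. In cluster 8 it was 1.12, or 0.951 without the 8% of cells with the most UMIs and 1.63 with thinned cells.

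*Nqo1* was at its highest in macrophages, 477 CPM in control and 456 CPM in LPS cells, and its ratio there was 0.956 (0.884 to 1.03), or 1.14 relative to the median gene. Both endothelial clusters came next, with 315 and 276 CPM in cluster 4 (0.877, 0.833 to 0.922) and 338 and 254 CPM in cluster 5 (0.752, 0.696 to 0.813). Of the clusters with at least 50 cells, cluster 3 had the lowest level, 84.3 and 75.4 CPM. In LPS cells the small cluster 10 was at 69.0 CPM from 11 UMIs, with an interval (34.4 to 123) that held the level of cluster 3. Cluster 7 was the only one called, with 209 CPM (305 UMIs) and 129 CPM (196 UMIs), a ratio of 0.617 (0.513 to 0.741) that was 0.679 as a mean of single cells and 0.686 without the 8% of cells with the most UMIs. *Nqo1* was uneven from cell to cell, though not alone in this. In thinned macrophages its variance was 2.28 times its mean in control and 2.96 times in LPS cells. The same values were 2.69 and 4.11 for *Sod2*, 2.14 and 1.44 for *Gpx1*, and 1.01 and 1.07 for *Sod1*. Cells of the same cluster ran from 0 to 11 *Nqo1* UMIs in control and from 0 to 13 in LPS macrophages.

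*Gclm* was low throughout, 20.0 to 55.6 CPM in control, and its ratio lay between 0.788 and 1.01 in the 6 compared clusters other than macrophages, clusters 0 and 1 moving above 1 relative to the median gene. The ratio of 1.01, in cluster 5, was 0.702 with thinned cells, and that of 0.788, in cluster 3, was 0.486 with the filter on mitochondrial UMIs. In macrophages it had 30.2 CPM (94 UMIs) and 11.3 CPM (28 UMIs), a ratio of 0.373 (0.236 to 0.574) that became 0.226 with thinned cells. In the same cells *Txnrd1* was on the other side of control.

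Cluster by cluster, macrophages had the most calls: 2 of the 8 enzymes compared were higher and 3 lower, where 9.24% of all 4589 genes were higher and 26.5% lower. In cluster 3 none of the 9 enzymes passed the limit, and of all genes 3.5% were higher and 3.26% lower. None of 7 passed it in the mesothelial-like cluster 8 either (all genes: 4.61% and 4.35%), although *Gpx3* there, at 0.868, was 0.658 and past the limit without the 8% of cells with the most UMIs. In the endothelial clusters, cluster 5 had 2 higher and 2 lower of 9 (all genes: 9.01% and 10.5%) and cluster 4 had 1 of each (5.38% and 10.1%).

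Among fibroblasts, clusters 0 and 1 each had 2 higher and 0 lower of 9 (all genes: 6.82% and 17.1% in cluster 0, 6.17% and 10.4% in cluster 1), and cluster 7 had 1 higher and 2 lower of 8 (8.97% and 7.8%). The mural-like cluster 2 had 2 higher and 1 lower of 9 (5.42% and 10.8%). In the smallest clusters few genes could be compared: cluster 9 had 1 higher and 0 lower of 4 (5.16% and 4.79%), and cluster 10 had 1 higher and 0 lower of 2 (6.84% and 5.06%). In both, the higher enzyme was *Sod2*.

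By role, the summed UMIs of the 3 dismutases and of the 3 peroxide-removing enzymes moved apart. In macrophages the dismutases had a ratio of 2.84 (2.77 to 2.92) and *Cat*, *Gpx1* and *Gpx3* together one of 0.324 (0.307 to 0.343). In all cells these ratios were 1.66 (1.66 to 1.67) and 0.787 (0.781 to 0.793), and that of *Nqo1*, *Txnrd1* and *Gclm* was 1.02 (1.01 to 1.04). The dismutase sum is mostly *Sod2*. In macrophages the peroxide-removing sum is mostly *Gpx1*, 5109 of 6179 UMIs in control and 1014 of 1599 in LPS cells. *Sod1* alone had a ratio of 0.938 in macrophages, and *Gpx3* alone one of 0.727. In all cells the peroxide-removing sum is mostly *Gpx3*, 115724 of 147068 UMIs in control and 79011 of 96728 in LPS cells, a ratio of 0.817. In cluster 3 the ratios of the 3 sums were 1.27 (1.24 to 1.31), 0.930 (0.892 to 0.969) and 0.971 (0.893 to 1.05).

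A further 41 antioxidant genes were listed and 38 were found by symbol. They gave 315 pairs with enough UMIs, 18 higher and 32 lower (5.71% and 10.2%, against 6.37% and 11.5% of all pairs). In macrophages, 2 of 33 were higher (6.06%) and 9 lower (27.3%), against 9.24% and 26.5% of all genes there, so the lower share was close to that of the cluster as a whole. *Slc7a11*, the cystine carrier that feeds glutathione synthesis, had 28.3 CPM (88 UMIs) and 275 CPM (684 UMIs), a ratio of 9.74 (7.79 to 12.3). *Mt2A*, a metallothionein that binds metal ions, had 590 and 1298 CPM (2.08 to 2.33-fold). On the lower side were *Glrx*, glutaredoxin, with 727 and 324 CPM (0.446, 0.411 to 0.483), *Msrb1*, a methionine sulfoxide reductase (0.510, 0.435 to 0.598), and *Gpx4*, the lipid peroxide-reducing glutathione peroxidase, with 739 and 408 CPM (0.551, 0.511 to 0.594). *Gpx4* and *Msrb1* encode selenoproteins, as do *Gpx1*, *Gpx3* and *Txnrd1*.

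**Figure D5:**
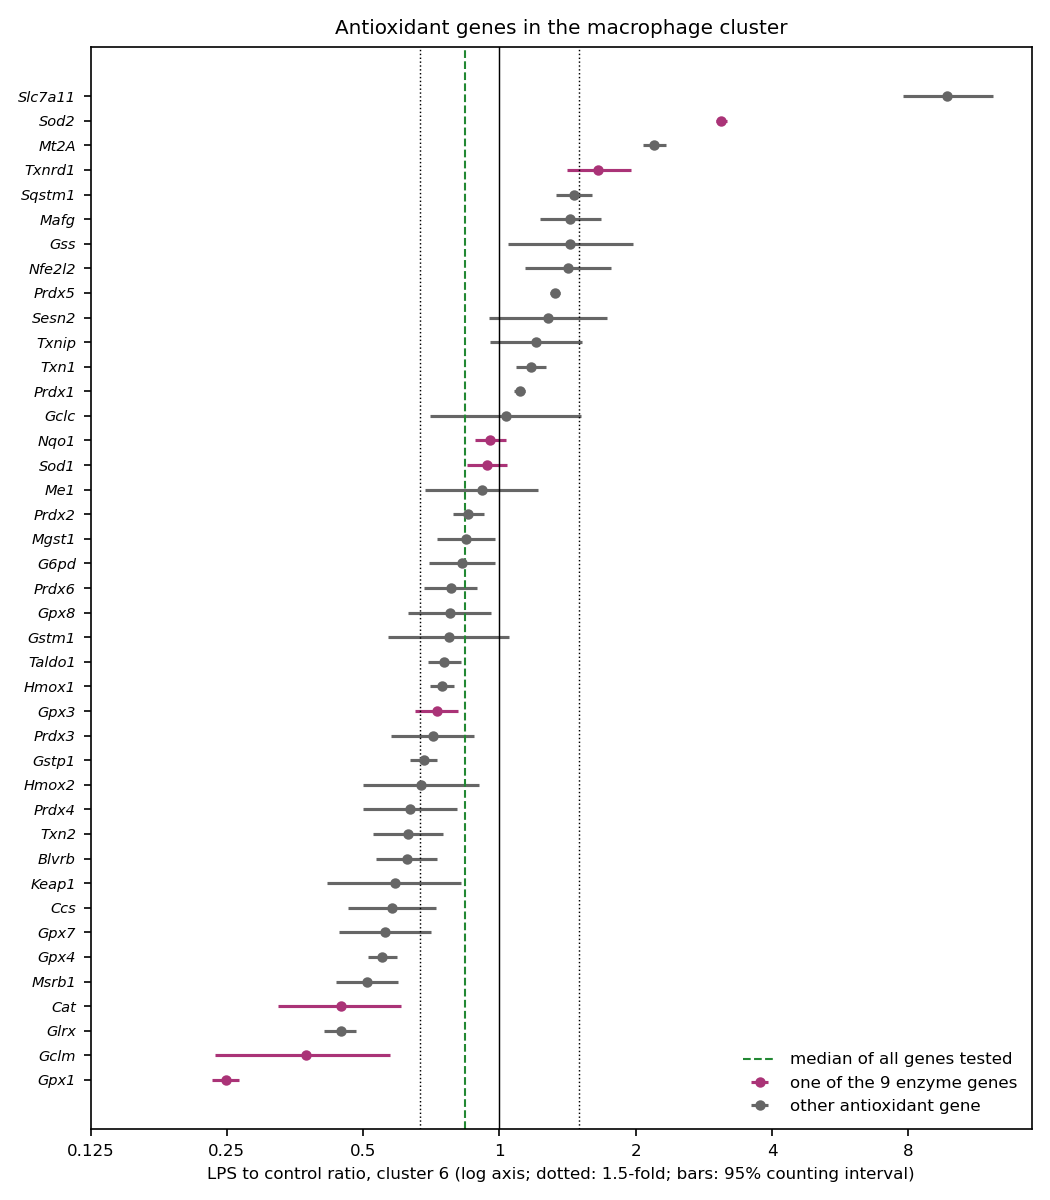
Ratio of LPS to control in macrophages (log axis) for the 8 enzymes compared (purple) and 33 other antioxidant genes (grey), with 95% counting intervals, the 1.5-fold limits (dotted) and the median of all genes (dashed). *Slc7a11* at 9.74 and *Sod2* at 3.09 lie at the top, and *Gpx1* at 0.249 and *Gclm* at 0.373 at the bottom.

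Outside macrophages *Glrx* was lower in clusters 0 to 5, with 25.2 and 10.8 CPM in cluster 0 (0.427, 0.394 to 0.464) and 27.7 and 8.83 CPM in cluster 4 (0.319, 0.248 to 0.407). Of the macrophage markers with enough UMIs, 5 of 8 were lower in cluster 0, 1 of 3 in cluster 1 and 1 of 2 in cluster 5. The counts were 0 of 1 in cluster 2 and 0 of 2 in cluster 4, and none could be compared in cluster 3. Of all genes, 17.1% were lower in cluster 0, 10.4% in cluster 1, 10.8% in cluster 2, 10.1% in cluster 4 and 10.5% in cluster 5. Outside cluster 0 too few markers were compared to set against these shares. The part of the macrophage markers in the *Glrx* ratios was not tested. *Txnip*, the inhibitor of thioredoxin, was lower in clusters 0, 1, 2, 4 and 5, with 63.5 and 22.7 CPM in cluster 4 (0.358, 0.306 to 0.417). *Hmox1*, heme oxygenase and a further NRF2 target, was lower in clusters 0 (0.657), 5 (0.431, 0.373 to 0.497) and 7 (0.334, 0.235 to 0.467). *Mafg*, a partner of NRF2 on DNA, was higher in clusters 0, 1, 2, 4 and 7, by most in cluster 1 (2.04, 1.87 to 2.23), and *Slc7a11* was higher in clusters 0, 1 and 4, in cluster 0 with 2.22 and 5.98 CPM (2.69, 2.27 to 3.20). *Gclc*, the catalytic partner of *Gclm*, was higher in clusters 0 and 2, in cluster 2 with 12.7 and 19.4 CPM (1.53), where *Gclm* had a ratio of 0.914 (0.775 to 1.08). *Gsta4*, a glutathione transferase, was lower in clusters 0 (0.491, 0.455 to 0.529), 1, 4 and 2 (0.397, 0.289 to 0.539).

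Of the listed genes of superoxide sources, 7 were found and 24 pairs compared, with 2 higher (8.33%) and 5 lower (20.8%), against 6.37% and 11.5% of all pairs. *Cyba*, the membrane subunit shared by NADPH oxidases, was called higher in endothelial clusters 4 and 5. Cluster 4 had 298 and 535 CPM (1.80, 1.72 to 1.88), and cluster 5 had 176 and 291 CPM (1.65, 1.51 to 1.81). Short of the limit, *Cyba* was also above control in clusters 0 (1.27), 1 (1.28), 2 (1.45), 3 (1.13), 7 (1.40), 8 (1.26) and 9 (1.27, 0.991 to 1.62). Its level was highest in macrophages, 1275 and 1233 CPM, where the ratio was 0.967 (0.922 to 1.01). *Ncf1*, an organizing subunit of the phagocyte oxidase, was lower in clusters 0, 1, 4 and 6, in macrophages with 555 and 305 CPM (0.550, 0.504 to 0.599). In macrophages *Cybb* and *Ncf4*, also on the list, were above control but short of the limit. *Cybb* had 183 and 237 CPM there, a ratio of 1.29. *Ncf4* had 238 and 323 CPM, a ratio of 1.36, and both intervals lay above 1. In the other clusters where it was called, *Ncf1* was low. It had 4.64 and 2.03 CPM in cluster 0, 5.45 and 2.43 CPM in cluster 1, and 6.83 and 2.77 CPM in cluster 4. Cluster 3 held more, 47.5 and 39.0 CPM (0.823, 0.690 to 0.979), and was not called. The part of free RNA from macrophages in those levels was not tested. *Nox4*, an NADPH oxidase that releases mainly hydrogen peroxide, was lower in cluster 0, with 1.80 and 0.976 CPM (0.542, 0.405 to 0.719). Its level was highest in endothelial cluster 4, at 20.9 and 15.9 CPM (0.760, 0.616 to 0.936).

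The genes whose levels were most like those of each enzyme were found by Pearson's r of log2(CPM + 1) over 20 points, 10 clusters in 2 libraries, among 8744 genes. The points share libraries and depth, so r is a description only. *Ptpn1* (0.93), *Traf1* (0.91) and *Nmt1* (0.90) were most like *Sod2*, and *Ugt1a9* (0.90), LOC103689961 (0.89) and *Tmem37* (0.89) most like *Gpx1*. *Gpx3* was followed by *Fbln1* (0.89), *Lpar1* (0.89) and *Prelp* (0.86), *Txnrd1* by *Ccl3* (0.83), *Gna13* (0.82) and *Slc2a1* (0.81), and *Nqo1* by *Ostf1* (0.91), *Skap2* (0.90) and *Dab2* (0.90). *Klhdc8b* (0.95), *Sulf2* (0.93) and *Dkk3* (0.93) were most like *Cat*, *Hsd17b8* (0.89), *Tmem135* (0.89) and LOC100912195 (0.87) most like *Sod1*, *Gpm6b* (0.89), *Adora2b* (0.89) and *Ssr1* (0.89) most like *Sod3*, and *Fbxo22* (0.87), LOC100911769 (0.86) and *Tsc22d2* (0.82) most like *Gclm*. Between the enzymes themselves, *Sod2* and *Cat* ran opposite to each other (r = -0.90) and *Gpx3* and *Sod3* together (r = 0.72).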

How the data were processed

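Single-cell libraries of Percoll-enriched neonatal rat cardiac cells, 1 per group, were deposited as raw UMI counts per gene and cell, without normalization, with the cluster and cell type that the authors gave each cell. The submitters' processing notes list Cell Ranger 2.2.0 and Seurat 2.3.4; the genome build and annotation are not given in the sources used here. No cells were removed from the main levels and ratios. The 2 control and 8 LPS cells without a cluster entered no class, and no doublet caller was applied.

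Counts were summed per cluster and library and divided by the cluster's total, per 1000000 UMIs (Python 3.11.15, numpy 2.4.6, scipy 1.17.1, pandas 2.3.3). Poisson intervals for levels, conditional binomial intervals for ratios and Clopper-Pearson intervals for shares are exact, at 95%, and cover counting error only. Thinning drew 3000 UMIs per cell and left out cells with fewer, which occurred only in the LPS library. Cluster 2 went from 1421 to 1394 LPS cells, cluster 4 from 823 to 796 and cluster 6 from 291 to 290. On simulated data with 200 genes changed 2-fold, 99% were called in each of clusters 6 (4589 genes) and 3 (7121 genes), and 95.4% and 95.6% of intervals held the true ratio. The simulated counts had counting error only, so they cannot show how the rule fares with differences between cells or libraries.

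The members, lists and limits were chosen with earlier results of these data known. Besides the 9 enzymes, the text names at most 5 other antioxidant genes per cluster past 1.5-fold, by absolute log2 ratio. It also names the 3 genes most like each enzyme among those with at least 1000 UMIs. A listed superoxide gene past 1.5-fold was named too, with *Cybb* and *Ncf4* given beside *Ncf1* in macrophages. Promoter windows come from RefSeq (GRCr8). Alternatives changed the denominator, scaling, cell filter, depth, fold and minimum of UMIs. The genes *Srxn1*, *Mt1a* and *Pgd* were not analysed here, since no single row carried the symbol.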

Additional observations from a re-analysis of the deposited data

How the results depend on the processing

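The 23 called pairs of enzyme and cluster kept their direction under all 6 alternatives to the levels (mitochondrial UMIs left out of the total, ratios relative to the median gene, means of single cells, the filter on cells, thinned cells, and the 8% of cells with the most UMIs left out). At 2-fold in place of 1.5-fold, 5 of 83 pairs were higher and 3 lower, and among the other antioxidant genes 7 of 315 were higher and 14 lower. Of all 60932 pairs, 3.07% were higher and 3.92% lower at 2-fold. The other counts stayed within 1.5 times under a minimum of 50 or 200 UMIs and under the 6 alternatives. Among all genes the higher share of called pairs was 35.6%, and 46.0% relative to the median gene. The log2 ratio of *Sod1* between cluster 3 and the next cluster turned to -0.053 in control and -0.10 in LPS cells under the filter on cells, which left 55 and 85 cells of cluster 3; whether fewer cells or their mitochondrial RNA account for it was not tested. Of 2754 recomputed values, 1897 stayed within their counting interval (within 1.5 times for counts of pairs), 855 moved beyond it and 2 reversed. Most of the moves (473 of them) were shares of cells at another depth of thinning or none. Only called ratios, and ratios of the highest cluster to the next with an interval above 1, could count as reversed. Other ratios that crossed 1, such as those of *Sod1* relative to the median gene, were counted as staying or moved. Low counts limit *Gclm* and *Sod3*, and 66 of the 83 pairs kept 100 UMIs after thinning. Of the called pairs, *Cat* in clusters 5 and 6, *Gclm* in cluster 6 and *Gpx1* in cluster 7 did not. Nor did *Sod3* in clusters 3, 4, 5 and 7, *Cat* and *Txnrd1* in clusters 7 and 8, and *Gclm* in cluster 5. The same held for *Nqo1* in clusters 8 and 9, *Sod1* in cluster 9 and *Gpx3* in cluster 10. Thinned ratios given for such pairs did not meet the minimum for a comparison. No paired analysis was possible because each group is 1 library.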

Other observations

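Cells that the authors left out of every cluster (2 in the control and 8 in the LPS library) had medians of 87.4% and 88.0% mitochondrial UMIs. Their *Sod2* UMIs numbered 2 with saline and 10 with LPS. In the same order *Txnrd1* had 1 and 2, *Gpx3* had 0 and 2, *Nqo1* had 0 and 1, and the other 5 enzymes had none.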
